A study of Mus musculus with 13 samples.

Results

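Respiratory complex I, the NADH dehydrogenase of the inner mitochondrial membrane, was followed here through the messages of 36 of its nuclear-encoded subunits, taken by symbol from a fixed list of members among the 43629 genes in the count files. All 36 symbols matched a single Ensembl gene, all 36 passed the filter on low counts, and they lie on 15 chromosomes. The libraries come from mouse embryonic fibroblasts (MEFs), connective tissue cells grown from embryos (E12.5 per the labels) and kept in DMEM with serum. In RNA immunoprecipitation (IP) an antibody enriches a protein and the RNA bound to it. It was done with 3 libraries for IMP1 (gene Igf2bp1), 3 for IMP2 (gene Igf2bp2) and 3 for IgG, a control antibody that measures background. IMP1 and IMP2 are related cytoplasmic proteins that bind mRNA, and the study set out to find the RNA clients of each. Total RNA was sequenced in 1 library each of IMP1 KO, IMP2 KO, IMP1 WT and IMP2 WT cells. KO stands for knockout of the named gene, and WT for its wild type. No genotype is given in the labels for the cells of the IP libraries. The labels also do not say whether the 3 libraries of an IP group came from separate cultures, so p-values measure the spread between these libraries, which may be technical.

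Complex I takes electrons from NADH and passes them over a flavin and a chain of iron-sulfur clusters to ubiquinone, and uses the energy to pump protons across the membrane. Its parts are built as modules: the N module oxidises NADH, the Q module hands electrons to ubiquinone, and the proximal and distal P modules form the proton-pumping membrane arm. Most of its subunits are encoded in the nucleus and imported, and the hydrophobic core of the pump is encoded in mitochondrial DNA. Of the 36 genes, 6 encode core subunits that carry the catalytic centres (Ndufv1, Ndufv2, Ndufs1, Ndufs3, Ndufs7 and Ndufs8) and 30 encode accessory subunits. Ndufa4, long counted with complex I, is now assigned to complex IV, and its values are given apart from the modules. It remains in the counts, medians and sums of the 36 members and among the 30 accessory subunits.

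Nuclear genes of complex I are known to be driven in part by NRF1, a transcription factor that binds palindromic GC-rich sites, so the starts of the genes were read for such sites before the messages were compared. RefSeq promoter windows of GRCm38.p6, from 250 bases before to 50 bases after the start of transcription, were matched for 33 of the 36 members. The NRF1 core (GCGCA, any base, then GCGC), read on both strands, was present in the windows of 7 of these 33 genes (21.2%) and of 1254 of 17492 genes with a window (7.2%). The YY1 core AAGATGGCG, on either strand, was present in 5 (15.2%) and in 374 of all genes (2.1%). The ETS core CCGGAAG, bound by GABP, was in 4 of the 33 (12.1%) and 12.9% of all genes, and the CCAAT box in 10 (30.3%) and 42.3%. The GC box GGGCGG was in 15 (45.5%) and 49.2%, and TATAAA in 4 (12.1%) and 14.8%. A match describes the letters of a window and not a bound site. The 120 bases before the start are shown for 4 genes whose messages differ in the IPs described next, in the direction of transcription, with NRF1 matches in capitals. Ndufa8 and Ndufs6 are shown as members that hold an NRF1 match and were at least 2-fold higher in IMP2 IP than in IgG IP under TMM scaling. Of the 7 members with a window that were 2-fold higher, 2 held a match. Ndufs7, with a higher ratio than Ndufs6, holds none. Ndufb4 had the lowest ratio of IMP1 IP to IMP2 IP, and Ndufv1 had the highest ratio of IMP1 IP to IgG IP. The stretches lie on the minus strand at chr2:36049339-36049458, chr13:73328483-73328602, chr16:37654369-37654488 and chr19:4012756-4012875.
Ndufa8: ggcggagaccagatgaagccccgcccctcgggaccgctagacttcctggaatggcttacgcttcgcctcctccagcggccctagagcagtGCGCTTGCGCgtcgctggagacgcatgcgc
Ndufs6: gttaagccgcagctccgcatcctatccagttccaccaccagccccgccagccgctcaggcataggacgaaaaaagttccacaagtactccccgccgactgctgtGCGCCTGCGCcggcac
Ndufb4: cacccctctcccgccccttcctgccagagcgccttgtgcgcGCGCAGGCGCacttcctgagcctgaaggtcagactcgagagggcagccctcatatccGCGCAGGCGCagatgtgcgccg
Ndufv1: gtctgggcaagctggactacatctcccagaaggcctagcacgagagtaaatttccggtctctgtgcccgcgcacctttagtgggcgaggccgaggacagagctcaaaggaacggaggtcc
The stretch of Ndufv1 holds no match to the NRF1, YY1 or ETS letters, and that of Ndufb4 holds 2 matches to NRF1.

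Gene counts per library were between 11430002 and 21756430, and the median member had 147 to 499 counts in an IP library and 730 to 1049 in a total RNA library. Values below are CPM, the usual library-scaled counts, after TMM scaling, so each is a share of its library, and more of a message and less of the others cannot be told apart. Transcript lengths were not used here, so CPM is compared between libraries for a gene and not between genes. No pair of IP libraries of a group was identical or within sampling noise. IMP2 IP replicate 1 stood apart from the other IMP2 IP libraries, with a chi-square per gene of 7.70 and 8.07 against them, where other pairs of a group gave 1.14 to 2.75. Composition differed between the groups: scaled by total counts alone, 5 nuclear non-coding RNAs summed to 1563 to 1571 CPM in IMP1 IP, 1255 to 1306 CPM in IMP2 IP and 7742 to 7998 CPM in IgG IP. All 8 fibroblast markers had counts in every total RNA library, with sums of 25570 to 42680 CPM on the same scale. The 7 complex I subunits encoded in mitochondrial DNA had 0 counts in all libraries, so the core of the membrane arm is not described here.

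IMP2 IP held a larger share of complex I messages than IgG IP. Of the 36 members, 31 were higher in IMP2 IP and 1 was lower, by edgeR's quasi-likelihood test with Benjamini-Hochberg adjustment at an adjusted p under 0.05, and 4 did not pass. In the same comparison 40.3% of the 14076 genes tested were higher and 37.3% lower. The median log2 fold change of the members was 0.79, beside 0.04 over all genes tested. The summed level of the 36 messages was 972.1 ± 59.6 CPM in IMP2 IP and 597.4 ± 5.95 CPM in IgG IP (SD, n = 3 each). The rise was of modest size in most members, and 8 were at least 2-fold higher, where 4.04% of all genes tested were: Ndufa8, Ndufa2, Ndufs7, Ndufs6, Ndufa1, Ndufb6, Ndufb11 and Ndufa10. Which members passed 2-fold depended on the scaling. Under upper quartile scaling Ndufa8 (log2 1.07) and Ndufa2 (1.06) stayed above 2-fold, and Ndufs7 and Ndufs6 (0.98 each) fell below it. The libraries of the groups did not overlap for 28 of the higher members and for the lower one, Ndufab1. Over all genes tested 78.3% did not overlap in either direction, a share near that of the members. Without IMP2 IP replicate 1, the library that stood apart, 31 members were higher and 1 lower, with a median of 0.80.

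IMP1 IP did not share that pattern. There, 4 members were higher than in IgG IP, 13 were lower and 19 did not pass the same test, while 31.7% of all genes tested were higher and 31.9% lower. The members' median log2 fold change was -0.13, beside -0.03 over all genes tested, and no member was 2-fold higher or lower, where 0.583% of all genes tested passed as 2-fold higher and 12.4% as 2-fold lower. The libraries of the groups did not overlap for 13 members lower and 5 higher in IMP1 IP, where 69.6% of all genes tested did not overlap. The higher members were Ndufv1, Ndufs1, Ndufa13 and Ndufa10. Under DESeq2's size factors, its Wald test, limma's voom and both other scalings 3 rather than 4 were higher, and the call lost was that of Ndufa10. Without the count filter 6 were higher and 11 lower. The members with the lowest fold changes among those that passed were Ndufab1, Ndufa7, Ndufa11 and Ndufa3. The summed level was 638.2 ± 17.8 CPM in IMP1 IP (SD, n = 3), against the 597.4 CPM of IgG IP, and without Ndufs1 and Ndufv1 it was 418.7 to 435.4 CPM in the IMP1 IP libraries and 467.7 to 470.9 CPM in the IgG IP libraries. Under upper quartile scaling 3 members were higher and 18 lower, with a median of -0.30, and that scaling moved the median of all genes tested by -0.17.

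**Figure D1:**
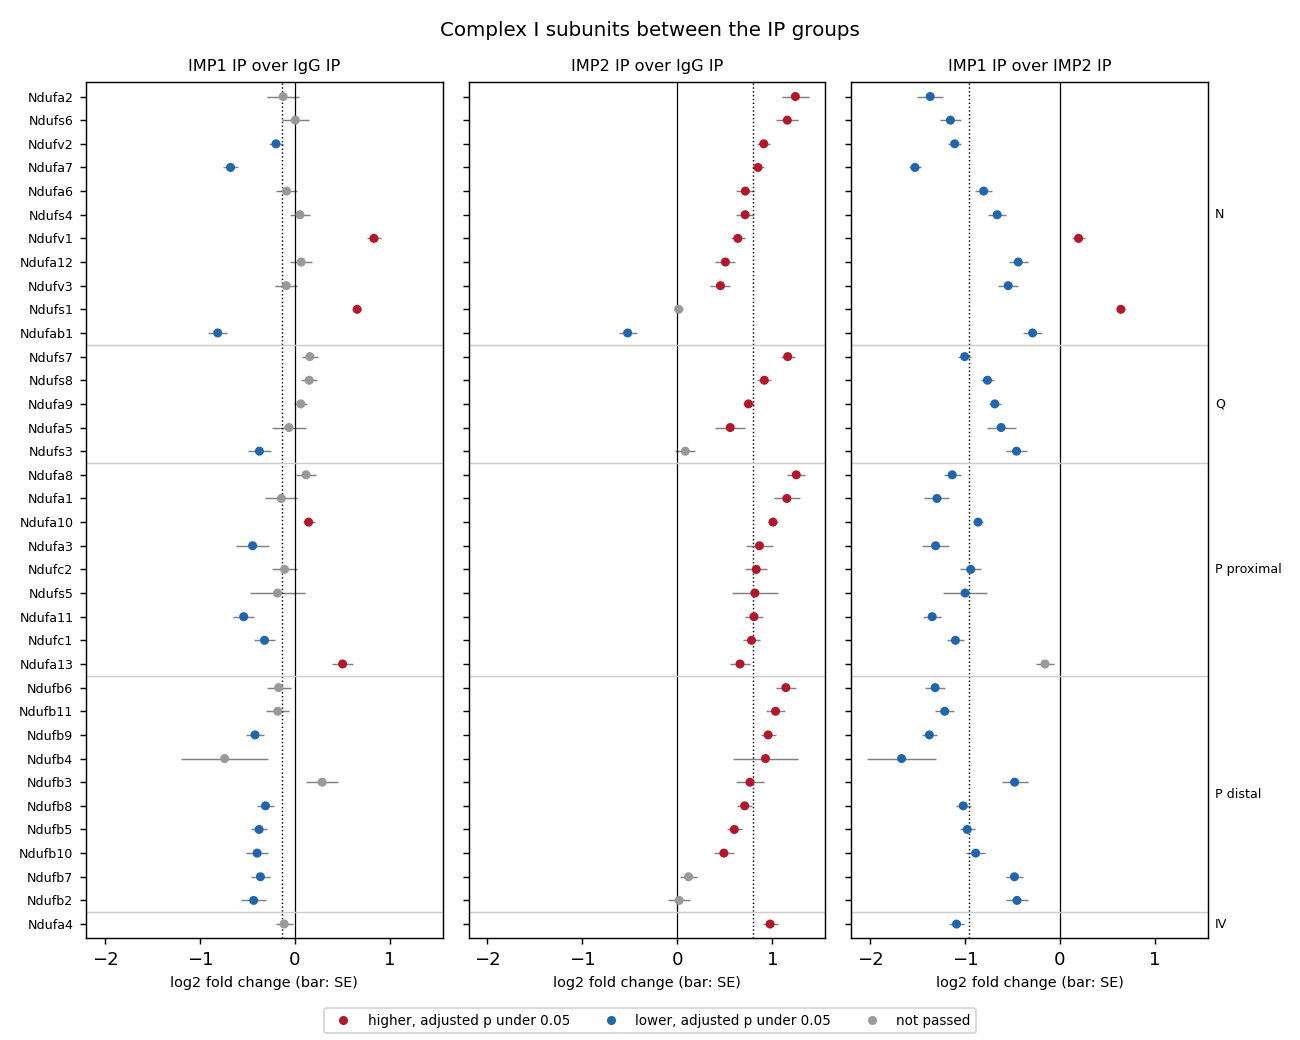
Log2 fold change (x axis, with its standard error as a bar) of each complex I subunit (rows, grouped by module, with Ndufa4 under IV) in IMP1 IP over IgG IP, IMP2 IP over IgG IP and IMP1 IP over IMP2 IP, with the members' median as a dotted line. The median lies at -0.13, 0.79 and -0.96 in that order, and Ndufs1 and Ndufv1 stand on the positive side of both panels of IMP1 IP.

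Set directly against each other, IMP1 IP had lower shares than IMP2 IP for 33 members and higher shares for 2, Ndufs1 and Ndufv1. Ndufa13 did not pass. Over all genes tested, 34.1% were higher and 37.3% lower in IMP1 IP. The members' median log2 fold change was -0.96, beside -0.01 over all genes tested, and 16 members were at least 2-fold lower, where 7.53% of all genes tested were. The libraries of the groups did not overlap for 32 members that were lower and 1 that was higher in IMP1 IP, while 73.2% of all genes tested did not overlap. The comparisons with IgG IP share its 3 libraries, and this direct one does not use them as a baseline, although all 9 libraries shared 1 fit. Of the 30 accessory subunits 29 were lower and none higher in IMP1 IP, and of the 6 core subunits 4 were lower. Without IMP2 IP replicate 1 the counts over all members were 33 lower and 2 higher, with a median of -0.97.

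**Figure D2:**
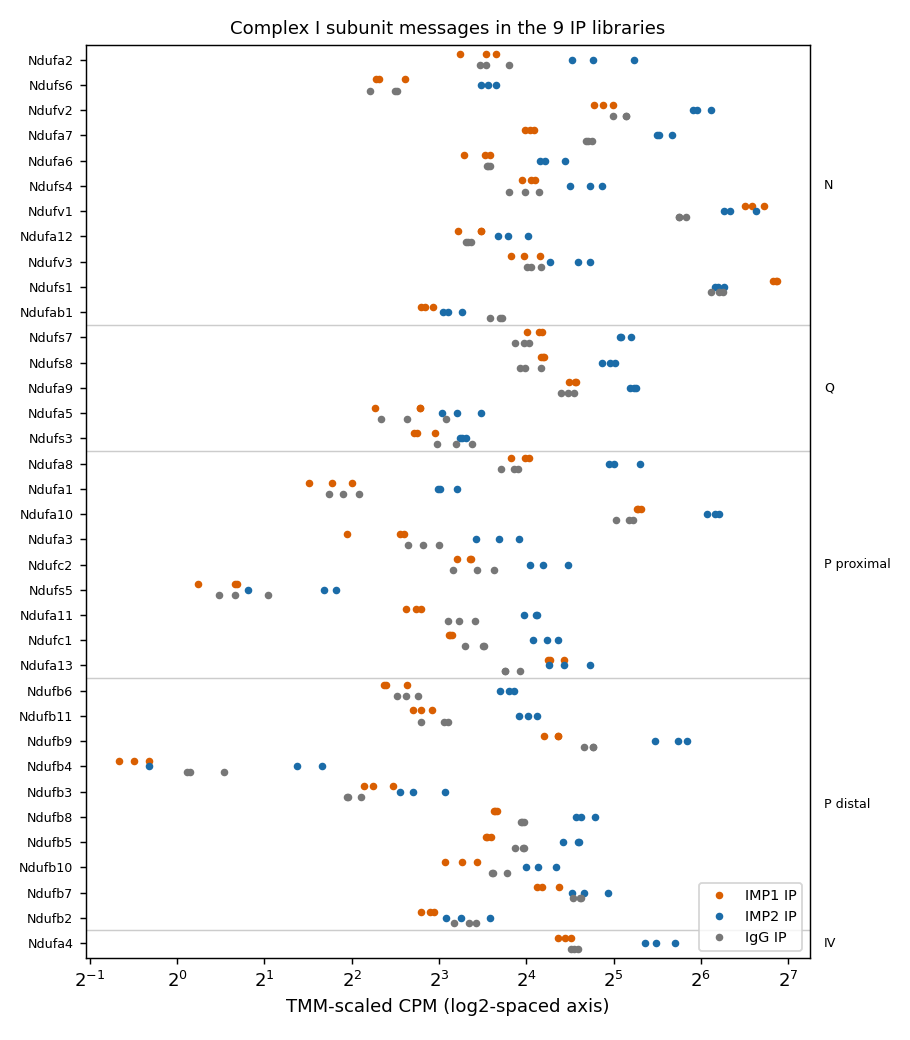
TMM-scaled CPM (x axis, log2-spaced) of each complex I subunit (rows, grouped by module) in every IP library, with 3 points for each of IMP1 IP, IMP2 IP and IgG IP. The IMP2 IP points lie to the right of the others in most rows, the IMP1 IP points of Ndufs1 lie to the right of both other groups, and Ndufb4 has the most widely spread IMP2 IP points, 0.8 to 3.17 CPM.

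The N module binds NADH and starts the electron chain, and its pair of large core subunits departed from the rest. Ndufs1 (ENSMUSG00000025968; GRCm38.p6, chromosome 1, 63143592 to 63176822) encodes the largest subunit, which carries iron-sulfur clusters. It stood at 116.89, 116.21 and 113.54 CPM in the IMP1 IP libraries, 77.08, 71.88 and 73.45 CPM in IMP2 IP, and 74.2, 69.24 and 76.41 CPM in IgG IP. All 3 IMP1 IP libraries lay above every other IP library, and IMP2 IP overlapped IgG IP. The log2 fold change of IMP1 IP was 0.66 over IgG IP (SE 0.0456, edgeR adjusted p = 3.28e-11) and 0.64 over IMP2 IP (SE 0.0436, adjusted p = 9.13e-12). For IMP2 IP over IgG IP it was 0.01 (SE 0.0463, adjusted p = 0.811), and that value changed sign under other scalings, down to -0.17 with an adjusted p of 0.0029 under upper quartile scaling. The gene overlaps the antisense gene Ino80dos, and the strand setting of the counting is unknown.

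Ndufv1 (ENSMUSG00000037916; chromosome 19, 4007499 to 4012755) encodes the subunit that binds NADH and the flavin. Its level was 105.43, 95.93 and 90.78 CPM in IMP1 IP, 98.91, 80.46 and 76.94 CPM in IMP2 IP, and 56.85, 53.64 and 53.6 CPM in IgG IP. Every library of either IMP protein was above every IgG library, and the IMP1 and IMP2 libraries overlapped. The message was 1.78-fold higher in IMP1 IP than in IgG IP (log2 fold change 0.83, SE 0.0754, edgeR adjusted p = 2.58e-09) and 1.55-fold higher in IMP2 IP (log2 0.64, SE 0.0748, adjusted p = 9.38e-08). IMP1 IP was higher than IMP2 IP by 0.20 on the log2 scale (SE 0.0688, adjusted p = 0.0146). That call was lost without IMP1 IP replicate 1 (0.13, adjusted p = 0.136), without IMP2 IP replicate 2 (0.15, adjusted p = 0.0948), without IMP2 IP replicate 3 (0.12, adjusted p = 0.134) and under total count scaling, where the sign turned (-0.13, adjusted p = 0.0927). Together Ndufs1 and Ndufv1 made up 32.8% to 33.8% of the summed complex I CPM in IMP1 IP, 15.19% to 17.43% in IMP2 IP and 20.81% to 21.77% in IgG IP.

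The third core subunit of the N module, Ndufv2 (ENSMUSG00000024099; chromosome 17, 66078795 to 66101559), also holds an iron-sulfur cluster, and it behaved otherwise. Ndufv2 had 31.97, 27.41 and 29.5 CPM in IMP1 IP, 62.13, 69.42 and 60.19 CPM in IMP2 IP, and 35.26, 35.3 and 31.76 CPM in IgG IP. IMP2 IP lay clear above both other groups, which overlapped each other. The log2 fold change was 0.91 for IMP2 IP over IgG IP (SE 0.0667, edgeR adjusted p = 4.71e-11) and -1.11 for IMP1 IP over IMP2 IP (SE 0.0659, adjusted p = 8.78e-13). For IMP1 IP over IgG IP it was -0.20 (adjusted p = 0.0231), a call lost without the count filter (adjusted p = 0.103) and without IgG IP replicate 1, IgG IP replicate 2, IMP1 IP replicate 2 or IMP1 IP replicate 3 (log2 -0.17, -0.17, -0.14 and -0.19, with adjusted p of 0.099, 0.0911, 0.147 and 0.056).

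Among the accessory subunits of the N module, Ndufa2, a protein with a thioredoxin-like fold, and Ndufs6, a zinc-binding subunit needed late in assembly, rose most in IMP2 IP. Ndufa2 (ENSMUSG00000014294; chromosome 18, 36742332 to 36744587) had 12.59, 11.62 and 9.46 CPM in IMP1 IP, 37.69, 27.14 and 23.08 CPM in IMP2 IP, and 11.08, 11.6 and 13.94 CPM in IgG IP. IMP2 IP was apart from both other groups, with its replicate 1 the highest. Ndufa2 rose 2.37-fold in IMP2 IP over IgG IP (log2 1.24, SE 0.144, edgeR adjusted p = 7.42e-08) and was 2.58-fold lower in IMP1 IP than in IMP2 IP (log2 -1.37, SE 0.14, adjusted p = 1.07e-08). Ndufs6 (ENSMUSG00000021606; chromosome 13, 73319876 to 73328482) had 6.09, 4.86 and 4.95 CPM in IMP1 IP, 12.62, 11.13 and 11.83 CPM in IMP2 IP, and 4.61, 5.71 and 5.62 CPM in IgG IP. Its lowest IMP2 IP library was above the highest of the other 6 IP libraries, and the log2 fold change of IMP2 IP over IgG IP was 1.16 (SE 0.117, adjusted p = 9.48e-09).

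Ndufa7, another accessory subunit of the NADH-oxidising arm, separated all 3 groups. Ndufa7 (ENSMUSG00000041881; chromosome 17, 33824572 to 33838316) had 15.78, 16.42 and 17.07 CPM in IMP1 IP, 45.87, 50.94 and 45 CPM in IMP2 IP, and 27.06, 26.09 and 25.65 CPM in IgG IP. IMP1 IP lay lowest, IgG IP between and IMP2 IP highest, with no overlap. The log2 fold changes were -0.68 for IMP1 IP over IgG IP (SE 0.0749, edgeR adjusted p = 5.85e-08), 0.85 for IMP2 IP over IgG IP (SE 0.0639, adjusted p = 7.4e-11) and -1.53 for IMP1 IP over IMP2 IP (SE 0.0665, adjusted p = 3.29e-15).

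Ndufab1 encodes the mitochondrial acyl carrier protein, which serves fatty acid synthesis as well as complex I, and it was lower in both IMP IPs. Ndufab1 (ENSMUSG00000030869; chromosome 7, 122086815 to 122101848) had 7.62, 6.95 and 7.17 CPM in IMP1 IP, 8.24, 9.63 and 8.62 CPM in IMP2 IP, and 12.95, 12.02 and 13.17 CPM in IgG IP. The IgG libraries lay above all others. It fell by 0.81 on the log2 scale in IMP1 IP against IgG IP (SE 0.102, edgeR adjusted p = 4.31e-07) and fell by 0.52 in IMP2 IP against IgG IP (SE 0.0949, adjusted p = 3.37e-05). IMP1 IP was below IMP2 IP by -0.29 (adjusted p = 0.0145), a call lost without IMP2 IP replicate 2 (adjusted p = 0.0688) and by DESeq2's Wald test (adjusted p = 0.125). A near-identical copy, Ndufab1-ps, is annotated, so these counts are uncertain where reads of the copies were not told apart.

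The remaining N module subunits, Ndufa6, Ndufa12, Ndufs4 and Ndufv3, rose in IMP2 IP over IgG IP by 0.45 to 0.72 on the log2 scale and did not pass in IMP1 IP. Ndufs4 is an accessory subunit whose loss causes Leigh syndrome in people, and Ndufa6 is a small protein that binds the acyl carrier protein. In all, the N module had 9 of 11 members higher and 1 lower in IMP2 IP, and 2 higher and 3 lower in IMP1 IP. Over all genes tested, 40.3% were higher and 37.3% lower in IMP2 IP, and 31.7% higher and 31.9% lower in IMP1 IP, so the N module's share of lower members in IMP1 IP was near that of all genes.

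The Q module carries electrons to ubiquinone through Ndufs7 and Ndufs8, the core subunits with its iron-sulfur clusters. Ndufs7 (ENSMUSG00000020153; chromosome 10, 80249105 to 80256794) had 18.08, 17.68 and 16.14 CPM in IMP1 IP, 36.89, 33.87 and 33.59 CPM in IMP2 IP, and 14.61, 16.29 and 15.74 CPM in IgG IP. Ndufs8 (ENSMUSG00000059734; chromosome 19, 3908863 to 3912774) had 18.38, 18.25 and 17.93 CPM in IMP1 IP, 31.09, 32.46 and 29.15 CPM in IMP2 IP, and 15.83, 15.18 and 17.96 CPM in IgG IP. In both genes IMP2 IP stood clear of the other groups, and IMP1 IP overlapped IgG IP. IMP2 IP exceeded IgG IP 2.24-fold for Ndufs7 (log2 1.16, SE 0.0736, edgeR adjusted p = 4.06e-12) and 1.89-fold for Ndufs8 (log2 0.92, SE 0.0749, adjusted p = 2.97e-10). For IMP1 IP over IgG IP neither passed (log2 0.16 and 0.15, adjusted p = 0.102 and 0.115), although both passed without the count filter (log2 0.22 and 0.21, adjusted p = 0.0451 and 0.0494), Ndufs8 also without IgG IP replicate 3 (0.24, adjusted p = 0.0328), and both were just below 0 under upper quartile scaling (-0.01 and -0.02).

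Ndufs3, the core subunit that braces the Q module, did not rise with them. Ndufs3 (ENSMUSG00000005510; chromosome 2, 90894627 to 90904721) had 6.74, 6.57 and 7.73 CPM in IMP1 IP, 9.89, 9.59 and 9.44 CPM in IMP2 IP, and 9.14, 10.4 and 7.9 CPM in IgG IP. IMP1 IP lay below every other IP library, and IMP2 IP lay within the range of IgG IP. The log2 fold change was -0.37 for IMP1 IP over IgG IP (SE 0.118, edgeR adjusted p = 0.00848), a call lost without IgG IP replicate 2 (-0.27, adjusted p = 0.0678). It was 0.08 for IMP2 IP over IgG IP (SE 0.107, adjusted p = 0.487). The other Q module members, Ndufa9, which helps join the module to the membrane arm, and Ndufa5, rose in IMP2 IP over IgG IP by 0.75 and 0.56 on the log2 scale, and in IMP1 IP over IgG IP gave 0.06 and -0.06 and did not pass.

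The proximal P module joins the membrane arm to the Q module. All 9 of its listed members were higher in IMP2 IP than in IgG IP, where 40.3% of all genes tested were. Ndufa8, a subunit on the intermembrane space side that is folded by disulfide bonds, had the highest log2 fold change of the 36. Ndufa8 (ENSMUSG00000026895; chromosome 2, 36036324 to 36049338) had 16.31, 15.85 and 14.16 CPM in IMP1 IP, 39.39, 31.98 and 30.96 CPM in IMP2 IP, and 14.46, 13.13 and 14.98 CPM in IgG IP. IMP2 IP was above the other groups in each library, and IMP1 IP overlapped IgG IP. The rise in IMP2 IP over IgG IP was 2.38-fold (log2 1.251, SE 0.0932, edgeR adjusted p = 6.1e-11), and IMP1 IP over IgG IP gave 0.12 (adjusted p = 0.345).

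Ndufa13, also known as GRIM-19 from its role in a cell death pathway, had the smallest fold change between the IMP IPs of the 36. Ndufa13 (ENSMUSG00000036199; chromosome 8, 69894163 to 69902558) had 21.57, 19.26 and 19.05 CPM in IMP1 IP, 26.55, 21.64 and 19.22 CPM in IMP2 IP, and 15.18, 13.56 and 13.52 CPM in IgG IP. Both IMP groups lay above IgG IP and overlapped each other. The log2 fold change over IgG IP was 0.50 in IMP1 IP (SE 0.108, edgeR adjusted p = 0.000357) and 0.66 in IMP2 IP (SE 0.104, adjusted p = 5.94e-06). For IMP1 IP over IMP2 IP it was -0.16 (SE 0.095, adjusted p = 0.145), and it passed as lower under total count scaling (-0.48, adjusted p = 9.62e-05), without the count filter (-0.19, adjusted p = 0.0469) and without IMP2 IP replicate 3 (-0.27, adjusted p = 0.0133). The gene overlaps Tssk6.

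Ndufa11, a membrane subunit with a fold shared with mitochondrial import channels, went in opposite directions in the IMP IPs. Ndufa11 (ENSMUSG00000002379; chromosome 17, 56717762 to 56724248) had 6.15, 6.95 and 6.68 CPM in IMP1 IP, 17.39, 17.24 and 15.68 CPM in IMP2 IP, and 9.36, 8.61 and 10.61 CPM in IgG IP. The 3 groups did not overlap. IMP1 IP was 1.45-fold lower than IgG IP (log2 -0.54, SE 0.113, edgeR adjusted p = 0.000266), and IMP2 IP was 1.75-fold higher than IgG IP (log2 0.81, SE 0.0947, adjusted p = 9.23e-08). Ndufa3 and Ndufc1, both small membrane subunits, followed the same order, lower in IMP1 IP and higher in IMP2 IP. Ndufa10, related in fold to nucleoside kinases, was higher in both, by 0.14 in IMP1 IP (SE 0.0622, adjusted p = 0.0487) and 1.006 in IMP2 IP (SE 0.0574, adjusted p = 6.97e-13) on the log2 scale. The call of Ndufa10 in IMP1 IP was lost under the other scalings, DESeq2's Wald test and limma's voom. Ndufs5, with 20 to 80 counts in an IP library, is among the thinly covered members.

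The distal P module forms the tip of the membrane arm, and 6 of its 10 members were lower in IMP1 IP than in IgG IP, none was higher, and 8 were higher in IMP2 IP. The same calls took in 31.9% (lower in IMP1 IP), 31.7% (higher in IMP1 IP) and 40.3% (higher in IMP2 IP) of all genes tested. Ndufb9, a small protein that binds the acyl carrier protein, is one of them. Ndufb9 (ENSMUSG00000022354; chromosome 15, 58933801 to 58939516) had 20.57, 20.65 and 18.37 CPM in IMP1 IP, 57.35, 53.36 and 44.55 CPM in IMP2 IP, and 25.4, 27.12 and 27.25 CPM in IgG IP. No group overlapped another. The log2 fold change was -0.42 for IMP1 IP over IgG IP (SE 0.0918, edgeR adjusted p = 0.000401), 0.96 for IMP2 IP over IgG IP (SE 0.08, adjusted p = 4.26e-10) and -1.38 for IMP1 IP over IMP2 IP (SE 0.0809, adjusted p = 7.17e-13).

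Ndufb4, a membrane-arm subunit with annotated related copies, had the lowest ratio of IMP1 IP to IMP2 IP and the fewest reads of the members. Ndufb4 (ENSMUSG00000022820; chromosome 16, 37647602 to 37654368) had 0.71, 0.63 and 0.8 CPM in IMP1 IP, 0.8, 3.17 and 2.59 CPM in IMP2 IP, and 1.08, 1.45 and 1.11 CPM in IgG IP. IMP2 IP replicate 1 was level with IMP1 IP and below IgG IP, and the other IMP2 IP libraries were above both. The log2 fold change was -1.67 for IMP1 IP over IMP2 IP (SE 0.361, edgeR adjusted p = 0.000284) and 0.93 for IMP2 IP over IgG IP (SE 0.338, adjusted p = 0.0167). For IMP1 IP over IgG IP it was -0.74 (SE 0.459, adjusted p = 0.166), which passed when only those libraries were fitted (-0.75, adjusted p = 0.0275).

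Ndufb2 and Ndufb7 were the distal members that did not pass in IMP2 IP. Ndufb2 (ENSMUSG00000002416; chromosome 6, 39592565 to 39599843) had 7.45, 7.71 and 6.93 CPM in IMP1 IP, 8.47, 12.01 and 9.53 CPM in IMP2 IP, and 10.72, 10.15 and 9.01 CPM in IgG IP. IMP1 IP lay below both other groups, which overlapped. Ndufb2 was 1.35-fold lower in IMP1 IP than in IgG IP (log2 -0.43, SE 0.13, edgeR adjusted p = 0.00605), while IMP2 IP over IgG IP gave 0.02 (SE 0.119, adjusted p = 0.895), with either sign under other settings. Ndufb7, a disulfide-bonded subunit on the intermembrane space side, gave 0.12 for IMP2 IP over IgG IP (adjusted p = 0.242) and was lower in IMP1 IP than in IgG IP by -0.36 (adjusted p = 0.00252). Ndufb3 (ENSMUSG00000026032; chromosome 1, 58586397 to 58595964) had 4.73, 4.42 and 5.57 CPM in IMP1 IP, 8.41, 6.51 and 5.87 CPM in IMP2 IP, and 4.32, 3.84 and 3.88 CPM in IgG IP. The groups did not overlap in that gene, yet IMP1 IP over IgG IP did not pass (log2 0.29, SE 0.166, adjusted p = 0.139). Ndufa4, the subunit now placed in complex IV, was 1.97-fold higher in IMP2 IP than in IgG IP (log2 0.98, SE 0.0781, adjusted p = 2.03e-10) and gave -0.11 in IMP1 IP (adjusted p = 0.27).

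Total RNA of the wild-type cells was set beside the IPs next, with the IMP1 WT and IMP2 WT libraries as 1 group of 2 in a joint fit of 11 libraries over 16157 genes. Complex I messages took a smaller share of every IP than of total RNA, the control IP included. The 36 messages summed to 665.3 ± 21.5 CPM in IMP1 IP, 983.3 ± 47.3 CPM in IMP2 IP and 603.9 ± 8.58 CPM in IgG IP (SD, n = 3 each), against 1998 ± 66.4 CPM in WT total RNA (SD, n = 2). By edgeR's quasi-likelihood test, 33 members were lower and 2 higher in IMP1 IP, where 44.7% of all genes tested were lower and 41.4% higher. In IMP2 IP 32 were lower and 1 higher, where 41.6% of genes were lower and 39.5% higher. In IgG IP 32 were lower and none higher, where 44.4% and 43.7% of genes were, and 0 members were higher at an unadjusted p under 0.05 too. The members' median log2 fold change was -2.19 in IMP1 IP, -1.18 in IMP2 IP and -1.93 in IgG IP, beside -0.03, 0.02 and -0.01 over all genes tested. These comparisons share the same total RNA libraries, and the kind of library and the group cannot be told apart in them.

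Ndufs1 and Ndufv1 again stood apart, as did Ndufb2, Ndufa12 and Ndufab1 to a lesser degree. On the scale of the joint fit, Ndufs1 had 122.4, 121 and 117.9 CPM in IMP1 IP, 77.13, 72.45 and 75.51 CPM in IMP2 IP, and 75.21, 69.66 and 77.42 CPM in IgG IP, against 68.27 and 69.35 CPM in WT total RNA. Its log2 fold change over total RNA was 0.81 in IMP1 IP (SE 0.0607, edgeR adjusted p = 5.23e-11), 0.12 in IMP2 IP (adjusted p = 0.0645) and 0.11 in IgG IP (adjusted p = 0.105). Ndufv1 gave 0.69 in IMP1 IP (SE 0.0866, adjusted p = 2.07e-07), 0.46 in IMP2 IP (SE 0.0859, adjusted p = 5.57e-05) and -0.19 in IgG IP (adjusted p = 0.0576). Ndufb2 passed in none of the 3 comparisons, with 0.25 or less on the log2 scale. Ndufa12, a late-assembling N module subunit, was lower by -0.59 in IMP1 IP (adjusted p = 9.25e-05) and -0.70 in IgG IP (adjusted p = 1.7e-05), and gave -0.19 in IMP2 IP (adjusted p = 0.114).

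At the other end were small membrane-arm subunits. Ndufa1 (ENSMUSG00000016427; chromosome X, 37187588 to 37191238), a short subunit needed to build the membrane arm, had 3.59, 2.96 and 4.173 CPM in IMP1 IP, 7.963, 9.311 and 8.273 CPM in IMP2 IP, and 3.793, 3.346 and 4.286 CPM in IgG IP, against 44.72 and 44.49 CPM in WT total RNA. All IP libraries lay far below total RNA, the IMP2 IP libraries least so. Ndufa1 was 12.4-fold lower in IMP1 IP (log2 -3.64, SE 0.12, edgeR adjusted p = 2.58e-17), 5.22-fold lower in IMP2 IP (log2 -2.38, SE 0.102, adjusted p = 4.11e-15) and 11.6-fold lower in IgG IP (log2 -3.54, SE 0.122, adjusted p = 8.25e-17). Ndufa3 gave -3.48, -2.22 and -3.08 for IMP1 IP, IMP2 IP and IgG IP on the log2 scale, Ndufa13 gave -2.35, -2.23 and -2.90, and Ndufa11 gave -3.09, -1.79 and -2.60. The order of the members below Ndufa1 was not the same in the 3 comparisons. In the IMP1 IP comparison 31 of the 36 members were at least 2-fold lower, where 32.8% of all genes tested were, in IMP2 IP 22 (27.3% of genes) and in IgG IP 31 (31.4% of genes). None of the 6 core subunits was at least 4-fold lower in any of the 3. Of the 30 accessory subunits 20 were in IMP1 IP, 3 in IMP2 IP and 17 in IgG IP. The share of all genes at 4-fold was not counted, and whether core and accessory subunits differ was not tested. Ndufa1 and Ndufa2 overlap other annotated genes, Rnf113a1 and Tmco6, as do 9 of the 36 members in all.

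**Figure D3:**
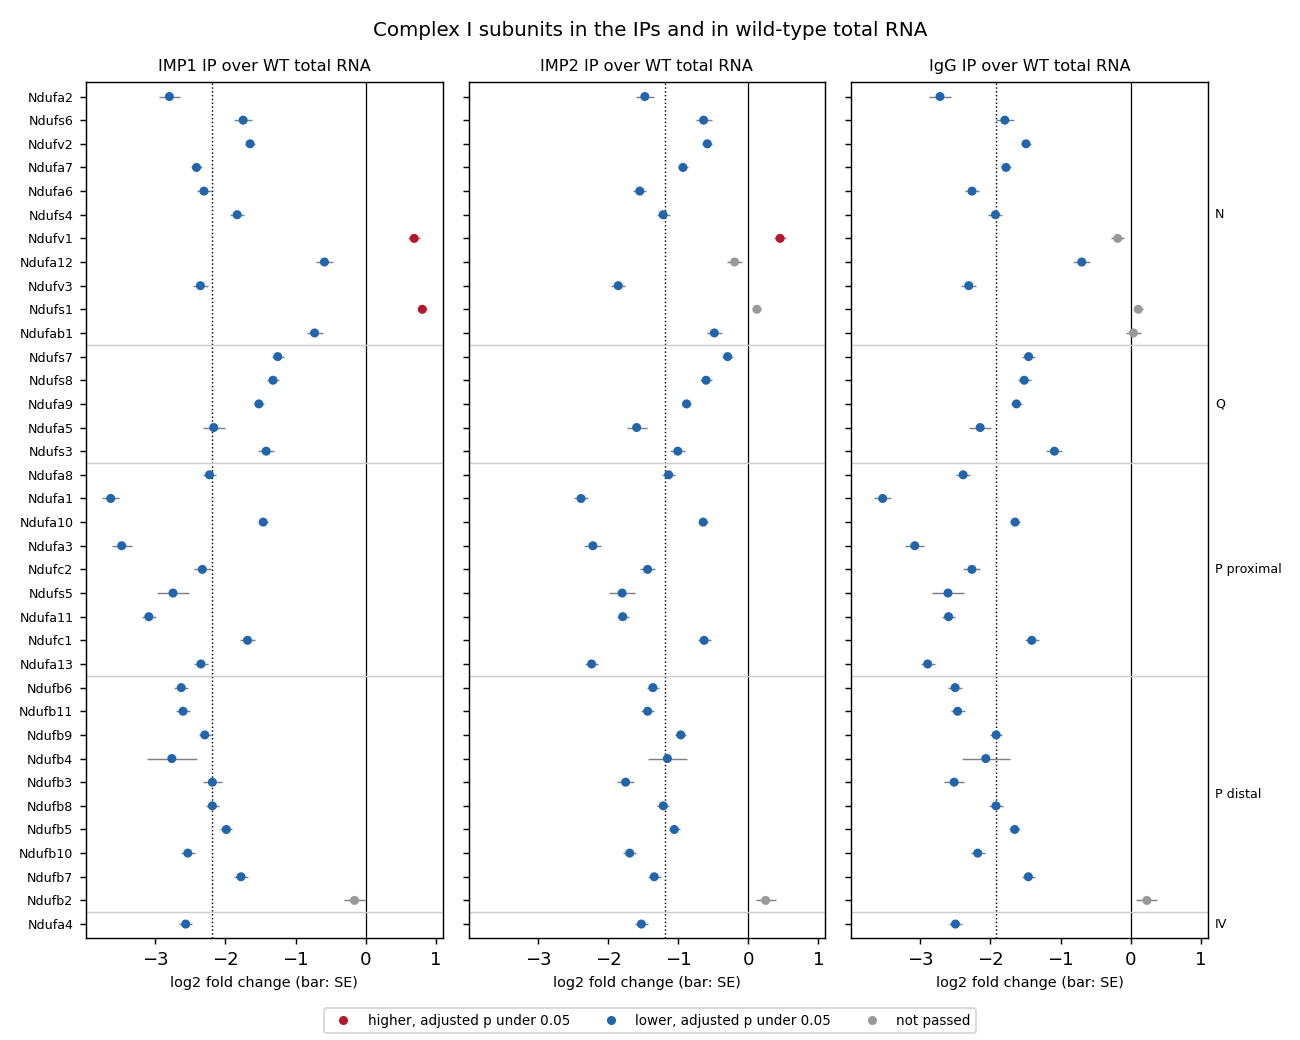
Log2 fold change (x axis, with its standard error as a bar) of each complex I subunit (rows, by module) in IMP1 IP, IMP2 IP and IgG IP over wild-type total RNA, with the members' median as a dotted line. Nearly all points lie left of 0 in all 3 panels, with medians of -2.19, -1.18 and -1.93, and Ndufs1 and Ndufv1 lie right of 0 in IMP1 IP.

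The knockouts were checked by their targeted gene. Igf2bp1 was at 3.21 CPM in IMP1 KO and 32.3 CPM in IMP1 WT, and Igf2bp2 at 28.2 CPM in IMP2 KO and 149 CPM in IMP2 WT, so reads of the targeted gene remained in both. With 1 library per genotype no test was possible, and differences have no replicate check. Ratios are given with exact 95% intervals that cover counting error only, and members were counted at 1.5-fold among the 10313 genes with at least 10 CPM in a total RNA library, which left out Ndufb4. In bulk RNA, fewer cells of a type and less RNA per cell cannot be told apart.

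No complex I message was past 1.5-fold between IMP1 KO and IMP1 WT. Of 35 members counted, 0 were 1.5-fold higher and 0 were 1.5-fold lower, where 11.6% and 13.6% of the genes counted were. The summed level was 2262 CPM in IMP1 KO and 2279 CPM in IMP1 WT. The members' log2 ratios ran from -0.38 to 0.40 with a median of -0.01, and 17 were positive and 18 negative. The counting interval lay below 1 for 9 members and above 1 for 5, where it did for 36.1% and 29.9% of all genes counted. The median changed sign under total count scaling (0.04) and upper quartile scaling (0.01). Ndufa11 had the highest ratio, at 87.58 CPM in IMP1 KO against 66.59 CPM in IMP1 WT, with an interval of 1.204 to 1.437 for the ratio. Next came Ndufa5 and Ndufs3 (log2 0.24 each) and Ndufb2 (0.24, interval 0.935 to 1.49). Ndufs5, at 8.45 CPM in IMP1 KO against 11.1 CPM in IMP1 WT, had the lowest (interval 0.590 to 0.987). It reached the CPM required for counting only in the wild-type libraries, where it was higher. After Ndufs5 came Ndufb5 (-0.30), Ndufv1 (-0.22) and Ndufa10 (-0.20). The difference between the wild-type libraries themselves, IMP2 WT over IMP1 WT, ran from -0.32 to 0.14 over the same members.

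In IMP2 KO most members had lower values than in IMP2 WT. The log2 ratio was negative for 28 of the 35 members counted and positive for 7, with a median of -0.18, beside -0.03 over all genes counted, of which 52.1% were negative. Between the wild-type libraries, with neither gene knocked out, IMP2 WT over IMP1 WT was negative for 26 of the same 35 members, with a median of -0.07, and for 49.4% of all genes counted. The summed level was 1941 CPM in IMP2 KO and 2174 CPM in IMP2 WT. The counting interval lay below 1 for 22 members and above 1 for 3 in IMP2 KO, where it did for 39% and 34.9% of all genes counted, and below 1 for 7 and above 1 for 1 in IMP2 WT over IMP1 WT, where it did for 23.6% and 23%. At 1.5-fold, 2 members were lower and 0 higher, where 15.6% and 14.6% of the genes counted were, so few members were past that fold. They were Ndufb6, a distal membrane-arm subunit, and Ndufs5, a proximal subunit on the intermembrane space side. Ndufb6 (ENSMUSG00000071014; chromosome 4, 40270591 to 40279421) had 24.43 CPM in IMP2 KO and 39.61 CPM in IMP2 WT (log2 ratio -0.69, interval of the ratio 0.544 to 0.699). Ndufs5 had 7.57 CPM in IMP2 KO and 11.7 CPM in IMP2 WT (log2 ratio -0.62, interval 0.514 to 0.816). It reached the CPM required for counting only in the wild-type libraries, so its lower call depends on libraries where it was higher. Ndufb7 and Ndufa10 followed, at -0.42 each. Ndufs3 had the highest ratio, 26.45 CPM in IMP2 KO and 21.17 CPM in IMP2 WT (interval 1.08 to 1.44), then Ndufb11 (0.20), Ndufa5 (0.17) and Ndufa2 (0.17).

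Ndufs1 had 61.75 CPM in IMP2 KO and 77.27 CPM in IMP2 WT, and 69.23 CPM in IMP1 KO and 76.08 CPM in IMP1 WT. Ndufv1 had 58.64 CPM in IMP2 KO and 67.9 CPM in IMP2 WT, and 61.88 CPM in IMP1 KO and 72.29 CPM in IMP1 WT. All 4 of these ratios were below 1 with intervals that did not reach 1. The same held in both knockouts for Ndufa9, Ndufa10, Ndufb8, Ndufs5 and Ndufv2. Intervals lay below 1 for 9 of 35 members in IMP1 KO and 22 in IMP2 KO, beside 36.1% and 39% of all genes counted. Of 5 macrophage markers (Ptprc, Cd68, Adgre1, Csf1r and Lyz2), all had counts in the total RNA libraries except Ptprc and Adgre1, which were at 0 in IMP1 KO. Scaled by total counts alone, they summed to 260.7 CPM in IMP2 KO against 28.62 CPM in IMP2 WT, and to 11.55 CPM in IMP1 KO against 22.29 CPM in IMP1 WT. Their part in the IMP2 KO values was not tested. Ndufa4l2, a relative of Ndufa4 that is induced by low oxygen in other cells, had 0.254 CPM in IMP1 KO against 8.002 CPM in IMP1 WT, and 2.14 CPM in IMP2 KO against 10.2 CPM in IMP2 WT. These rest on 3 and 118 counts and on 35 and 172 counts, and Ndufa4l2 is no member of the list of 36.

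**Figure D4:**
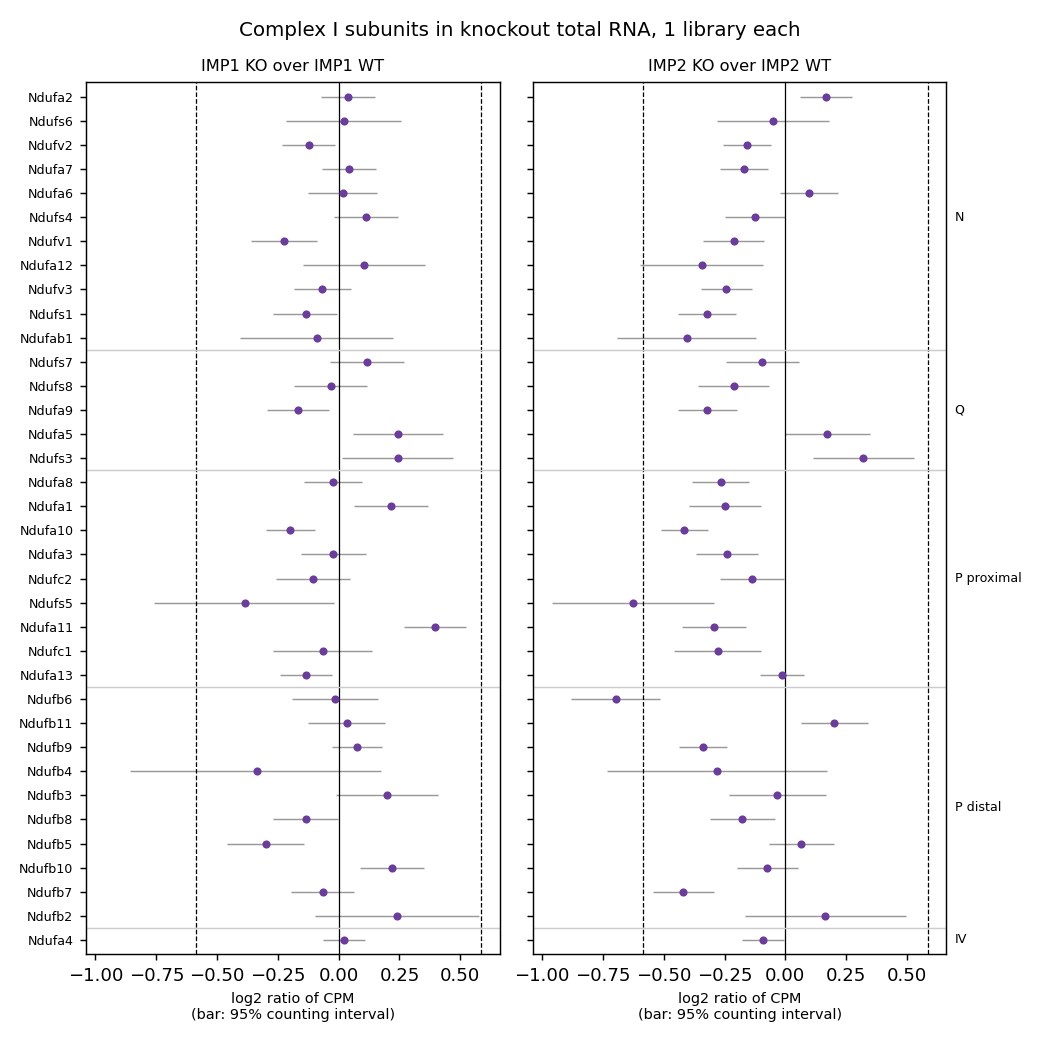
Log2 ratio of CPM (x axis, with 95% counting intervals as bars) of each complex I subunit (rows, by module) in IMP1 KO over IMP1 WT and IMP2 KO over IMP2 WT total RNA, 1 library each, with dashed lines at 1.5-fold. Points lie on both sides of 0 in IMP1 KO and mostly left of 0 in IMP2 KO, where Ndufb6 and Ndufs5 lie beyond the dashed line.

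The proteins that assemble complex I were set beside its subunits, from a list of 19 factors of which 18 were in the files and tested. For this and the following lists, the shares over all genes tested were 40.3% higher and 37.3% lower in IMP2 IP over IgG IP, 31.7% higher and 31.9% lower in IMP1 IP over IgG IP, and 34.1% higher and 37.3% lower in IMP1 IP over IMP2 IP. At 1.5-fold in the knockouts they were 11.6% higher and 13.6% lower in IMP1 KO, and 14.6% higher and 15.6% lower in IMP2 KO. In IMP2 IP 15 were higher than in IgG IP and none was lower, with Dmac1 (log2 1.05) and Tmem70 (0.93), both membrane-arm assembly factors, at the top and Tmem126b (0.24) and Acad9 (0.23) the lowest of those that passed. In IMP1 IP 2 were higher and 5 lower than in IgG IP, the lower share near that of all genes. The higher were Acad9 (0.69), an acyl-CoA dehydrogenase that doubles as an assembly factor, and Ndufaf7 (0.56). The lowest were Tmem126b (-0.85) and Ndufaf3 (-0.66). Directly compared, 14 of the 18 were lower and 2 higher in IMP1 IP than in IMP2 IP, with Dmac1 at -1.31. In the knockouts, Ndufaf4, an assembly factor of the Q module, had 17.08 CPM in IMP1 KO against 30.38 CPM in IMP1 WT (log2 ratio -0.83), and Tmem70 had 48.93 CPM in IMP2 KO against 86.23 CPM in IMP2 WT (-0.82). They were the factors past 1.5-fold of the 16 counted in each knockout.

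From the routes that supply NADH to complex I, 12 enzymes were listed. They belong to the pyruvate dehydrogenase complex, the citric acid cycle and the malate-aspartate shuttle. All 12 were higher in IMP2 IP than in IgG IP. Mdh2 (log2 1.13) and Got1 (1.05) led, and Dlat (0.48) and Ogdh (0.28) were the lowest. In IMP1 IP 8 of the 12 were higher than in IgG IP, led by Dld (0.54) and Dlat (0.40), and Idh3g (-0.21) and Got2 (-0.13) were lower. Of 13 genes of ubiquinone synthesis, the substrate of complex I, 7 were higher and 2 lower in IMP2 IP, and 2 higher and 4 lower in IMP1 IP, the lower share again near that of all genes. Coq4 (1.07) and Coq3 (0.71) led in IMP2 IP, and Coq8a (-0.84) and Pdss1 (-0.49) were lower there. In IMP1 IP Coq2 (0.34) and Coq5 (0.21) were higher. Of the 12 enzymes of the NADH routes, 1 was 1.5-fold lower in IMP1 KO, Got2 (log2 ratio -0.69). In IMP2 KO 3 of them were, Idh3a (-0.82), Got2 (-0.72) and Mdh2 (-0.70). Of 11 ubiquinone genes counted, Coq3 was 1.5-fold lower in both knockouts (-0.72 in IMP1 KO and -0.82 in IMP2 KO). Coq10b was lower in IMP2 KO (-1.02) and Coq8a was higher there (1.49). Coq8a had 11.06 CPM in IMP2 KO, 3.855 CPM in IMP2 WT, 2.198 CPM in IMP1 KO and 2.17 CPM in IMP1 WT. It reached the CPM required for counting only in IMP2 KO, so its higher call depends on the library where it was high.

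The 38 tested subunits of complexes II to V, which take over the electrons and make ATP, had 33 higher and 2 lower in IMP2 IP over IgG IP, and 8 higher and 15 lower in IMP1 IP over IgG IP. In the direct comparison 34 of the 38 were lower and 3 higher in IMP1 IP than in IMP2 IP. Sdha, the large flavin subunit of complex II, was among those higher in IMP1 IP, with a log2 fold change of 1.03 over IgG IP and 0.66 over IMP2 IP, and Sdhc was among the lower, at -0.33 and -1.63. Of 35 such subunits counted in the knockouts, none was past 1.5-fold in IMP1 KO and 3 were lower in IMP2 KO, Cox5a (log2 ratio -1.03), Uqcrq (-0.83) and Atp5b (-0.73). Whether complex I subunits differ from the other complexes was not tested. Of 9 regulators of mitochondrial gene expression, 6 were higher and 2 lower in IMP1 IP than in IgG IP, and 4 higher and 2 lower in IMP2 IP, where the higher share was near that of all genes. Ppargc1b (0.62) and Yy1 (0.52) led in IMP1 IP, and Tfam (0.59) and Esrra (0.34) led in IMP2 IP. Ppargc1b was near the floor in total RNA, with 0 counts in IMP1 KO, 1 in IMP1 WT, 2 in IMP2 KO and 4 in IMP2 WT. Nrf1, the factor whose letters were read in the promoters above, gave -0.29 in IMP1 IP and -0.04 in IMP2 IP, the second without passing.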

How the data were processed

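The authors deposited raw read counts, 1 file per library, for 9 IP and 4 total RNA libraries of mouse embryonic fibroblasts. Illumina TruSeq kits are named in the labels' protocols. STAR, HTSeq and mm10 are named in the submitters' processing notes. Versions, strand setting and annotation release are not given in the sources used here. The 5 tally lines of each file were left out of library sizes. Reads in no feature were 7.43% to 7.66% of records in IMP1 IP, 4.70% to 5.22% in IMP2 IP, 24.2% to 25.2% in IgG IP and 4.43% to 5.10% in total RNA. Non-unique reads were 21.3% to 23.1%, 26.5% to 28.2%, 17.2% to 17.3% and 38.4% to 40.9% in the same groups, so reads shared by near-identical copies are not in these counts or are uncertain. Positions and promoter sequences are RefSeq's, of GRCm38.p6, matched by symbol.

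All 9 IP libraries entered 1 quasi-likelihood fit in edgeR 4.0.16 (R 4.3.3) with TMM scaling, the default expression filter and no covariate, with 2-sided tests and Benjamini-Hochberg adjustment over 14076 genes. A second fit added the 2 wild-type total RNA libraries as a group (16157 genes). Each standard error is the size of the log2 fold change over the root of its F statistic. Knockout ratios used a prior count of 2. A gene with 0 counts could be at up to 3 counts, or 0.138 to 0.262 CPM, by counting error only. Alternatives used DESeq2 1.42.0, limma 3.58.1 (voom), other scalings and filters, and left-out libraries. Replicate numbers did not pair libraries: the deviations of same-numbered libraries correlated at -0.06 to 0.07. Values in every library are given for core subunits and for the 4 highest and 4 lowest fold changes of the comparisons between IP groups. Related lists name up to the 2 highest and 2 lowest that passed. The members, lists and tests were chosen with earlier results of these data known. Ndufa1, Ndufa3, Ndufa9, Ndufa10, Ndufa12 and other members named besides these were picked to complete the account of their module.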

Additional observations from a re-analysis of the deposited data

How the results depend on the processing

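The direction of the complex I counts held in the alternatives run: for IMP2 IP over IgG IP 30 to 34 members were higher, and for IMP1 IP over IMP2 IP 32 to 34 were lower. Medians moved with scaling. Upper quartile scaling gave -0.30 for IMP1 IP over IgG IP, 0.61 for IMP2 IP over IgG IP (with 2 members lower), -2.36 for IMP1 IP over total RNA and -1.37 for IMP2 IP over total RNA. Total count scaling gave -0.29, 0.97, -1.28 for IMP1 IP over IMP2 IP (with 1 member higher), -2.55 for IMP1 IP over total RNA and -2.09 for IgG IP over total RNA, and 2 members higher in IMP2 IP over total RNA (3 without the count filter). These scalings moved the median of all genes tested by -0.36 to 0.17. The IMP1 KO median became 0.036 (total count) and 0.010 (upper quartile), and at 2-fold 0 members were lower in IMP2 KO.

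For named members, 490 recomputed values kept side and direction in 453 cases, lost the call in 11, gained it in 9 and changed sign in 17. Sign changes in IMP2 IP over IgG IP were Ndufs1 (-0.052 with DESeq2's size factors and its Wald test, -0.166 upper quartile, -0.030 with only those libraries, -0.016 to 0.055 leaving out 1 library), Ndufb2 (-0.046 size factors, -0.160 upper quartile, -0.052 Wald test, -0.026 only those libraries, -0.12 to 0.137 leaving out 1 library) and Ndufs3 (-0.095 upper quartile, -0.006 to 0.185 leaving out 1 library). In IMP1 IP over IgG IP they were Ndufs7 (-0.013, upper quartile) and Ndufs8 (-0.019, and -0.002 with total counts), and in IMP1 IP over IMP2 IP Ndufv1 (-0.13, total counts). The cause was not tested.

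Leaving out 1 library at a time gave, for members higher and lower, 3 to 4 and 10 to 12 in IMP1 IP over IgG IP (median -0.16 to -0.12), 30 to 31 and 1 in IMP2 IP over IgG IP (0.72 to 0.85), and 1 to 2 and 32 to 34 in IMP1 IP over IMP2 IP (-0.98 to -0.87). Over total RNA it gave 2 and 33 in IMP1 IP (-2.22 to -2.12), 1 to 2 and 32 to 33 in IMP2 IP (-1.25 to -1.08), and 0 to 1 and 32 to 33 in IgG IP (-1.99 to -1.92). With 1 total RNA library left, it is assumed to vary like the other groups. With the replicate block the counts were unchanged, at 4 and 13, 31 and 1, and 2 and 33, with medians of -0.14, 0.78 and -0.94; the labels' numbers did not pair libraries. Precision is lowest for Ndufb4, with 10 to 72 counts in an IP library, and Ndufs5.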
